A study of Mus musculus with 12 samples.

Results

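Gene expression in CD11c+ cells of the lung was compared between IFNAR-/- mice at day 14 and wildtype mice at day 7 after Pneumocystis infection, to ask whether the response without the receptor for type I interferons is a delayed copy of the early wildtype response. The comparison uses 6 of the 12 arrays of the series, taken by the genotype and day in their labels, with 3 arrays in each group and 1 mouse per array. The IFNAR-/- day 14 mice lack the type I interferon receptor and were taken 14 days after the fungus was instilled into the trachea. The wildtype day 7 mice carry the receptor and were taken 7 days after the same instillation. All mice of the series were infected, so no group gives an uninfected level, and the labels give no age, sex or background strain. Genotype and day both differ between the groups, and their parts in a difference cannot be told apart from this pair alone. The other groups, IFNAR-/- day 7 and wildtype day 14, are given where they show which group stands apart. Cells were taken from digested lungs with magnetic beads against CD11c, an integrin chain that marks dendritic cells and alveolar macrophages. The labels state that the sorted cells were mostly CD11c+ with a small share of lymphocytes.

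Type I interferons are secreted after pathogen sensing and bind a receptor made of the IFNAR1 and IFNAR2 chains on nearly all cells. Signalling from the receptor acts through interferon-stimulated response elements in promoters and switches on interferon-stimulated genes, many of which act against viruses. In lung macrophages and dendritic cells the same signal is known to act on inflammatory cytokines, chemokines and antigen presentation. Pneumocystis is a fungus that lives in the alveoli and is cleared with the help of CD4 T cells and macrophages.

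Each value is the log2 of a gene's ratio to about its median over the 12 arrays. Arrays can therefore be set against each other for a gene, but genes cannot be set against genes, and absolute levels are not known. A level means such a log2 ratio below. A difference is the mean of the IFNAR-/- day 14 arrays minus the mean of the wildtype day 7 arrays, with ± for its standard error from limma, n = 3 arrays per group and the adjusted p over all 18193 genes. A gene was called when that adjusted p was under 0.05. A gene was counted as within 2-fold when the 95% confidence interval of its difference lay between -1 and 1 on the log2 scale.

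IFNAR-/- day 14 mouse 2 stood apart from the other arrays, with an interquartile range of 0.556 over all genes where the other 5 arrays compared had 0.169 to 0.221. The 5' over 3' signal of the actin and Gapdh control probe sets, which drops as RNA degrades, overlapped between the compared groups, at 0.117 ± 0.050 in IFNAR-/- day 14 and 0.112 ± 0.057 in wildtype day 7 arrays (SD, n = 3 each). The poly-A spike-in signal did not overlap, at -1.75 to 0.171 in IFNAR-/- day 14 and 0.835 to 2.15 in wildtype day 7 arrays. Its part in the results was not tested beyond a fit with the signal as a covariate, whose counts stand beside the results. IFNAR-/- day 7 mouse 3, which enters the crossed contrast, differed from the other 11 arrays in sex-linked genes, with an Xist level of -3.98 and an Eif2s3y level of 2.89. It also had median levels of 2.39 for lung epithelial, 2.96 for endothelial and 1.91 for fibroblast markers, and their part in the crossed contrast was not tested beyond leaving this array out. Itgax, which encodes CD11c and was named after its values were seen, had levels of 0.00, -0.03 and 0.09 in IFNAR-/- day 14 mice, against 0.25, -0.28 and 0.05 in wildtype day 7 mice. The groups overlapped for Itgax, with a difference of 0.01 ± 0.13 and a limma adjusted p of 0.976, and a ratio to the median cannot show how strongly the cells expressed it.

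Ifnar1, which encodes a chain of the receptor, was measured by 2 probe sets, whose positions against the deleted part are not known, so they do not check the labels. The first had levels of -0.05, -0.63 and 0.00 in IFNAR-/- day 14 mice, against 0.02, 0.63 and -0.02 in wildtype day 7 mice. The other had 0.25, -1.39 and 0.77 in IFNAR-/- day 14 mice, against 0.13, 0.64 and 0.15 in wildtype day 7 mice. The groups overlapped on both probe sets, and the gene's difference was -0.43 ± 0.35 (limma adjusted p = 0.545). Of the 100 measured genes nearest to Ifnar1, 50 on each side, 0 were called.

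The largest falls were in interferon-stimulated genes. Promoters are shown for 3 interferon-stimulated genes called lower, those of lowest p whose letters match a core of the interferon-stimulated response element. They were not chosen by the size of the fall. That core was searched on both strands as GAAA, any 2 bases, then GAAA, in windows from 250 bases before to 50 bases after each gene's start in RefSeq for mouse GRCm38.p6. The windows are written 5′ to 3′ on the strand of the gene, with matches in capitals. Oas1a holds 2 overlapping matches. Oas3 lies at chr5:120777610-120777909, Oas1a at chr5:120907476-120907775 and Ifih1 at chr2:62646206-62646505, all on the minus strand.
Oas3: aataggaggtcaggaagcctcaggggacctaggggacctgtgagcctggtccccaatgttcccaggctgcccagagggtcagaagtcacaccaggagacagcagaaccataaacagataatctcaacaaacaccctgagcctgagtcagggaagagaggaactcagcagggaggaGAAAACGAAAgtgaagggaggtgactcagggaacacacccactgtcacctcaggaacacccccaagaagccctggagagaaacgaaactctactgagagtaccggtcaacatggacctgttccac
Oas1a: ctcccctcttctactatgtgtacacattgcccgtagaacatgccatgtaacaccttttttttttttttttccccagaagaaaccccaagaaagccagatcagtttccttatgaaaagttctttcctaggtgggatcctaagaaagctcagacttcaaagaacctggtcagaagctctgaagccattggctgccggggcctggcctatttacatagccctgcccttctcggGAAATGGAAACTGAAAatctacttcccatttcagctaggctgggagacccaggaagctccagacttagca
Ifih1: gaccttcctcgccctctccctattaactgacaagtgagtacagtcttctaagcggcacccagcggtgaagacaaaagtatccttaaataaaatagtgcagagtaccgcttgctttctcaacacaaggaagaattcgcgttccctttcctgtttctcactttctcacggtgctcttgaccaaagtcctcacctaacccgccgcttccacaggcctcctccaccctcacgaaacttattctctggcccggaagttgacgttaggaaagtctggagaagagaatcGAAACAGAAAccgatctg
Oas3 and Oas1a encode oligoadenylate synthetases, which activate RNase L, and Ifih1 encodes the RNA sensor MDA5. The motif was found in 13 of the 25 interferon-stimulated genes called lower that had a window (52.0%) and in 524 of all 14452 genes with a window (3.63%). In the whole interferon-stimulated list, called or not, it was found in 15 of 33 genes with a window (45.5%). It was found in 17 of 198 genes called lower outside that list (8.59%) and in 3 of 43 genes called higher (6.98%). A match is a description of these letters and not a measured binding site.

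Of 18193 genes, 328 were called (1.8%), with 53 higher (0.291%) and 275 lower (1.51%) in IFNAR-/- day 14 than in wildtype day 7. At an unadjusted p under 0.05 there were 3164 genes (17.4%). The interval of the difference lay within 2-fold for 16058 genes (88.3%), and the median difference over all genes was 0.02. The number called moved with single arrays. It was 608 without IFNAR-/- day 14 mouse 1, 160 without mouse 2 and 99 without mouse 3 of that group. Without wildtype day 7 mouse 1, 2 and 3 in turn it was 122, 200 and 123. It was 368 without IFNAR-/- day 7 mouse 3, 178 without IFNAR-/- day 7 mouse 1 and 198 without wildtype day 14 mouse 2, arrays which enter through the shared estimate of the spread. Adding the poly-A signal to the fit left 146 called genes. Of 40 named genes called, 31 kept their call in that fit, and 26 kept it with only the arrays of the compared groups. Quantile normalization applied again gave 1113 called genes, 351 higher and 762 lower in IFNAR-/- day 14. The sign of all 328 differences was the same in each of these fits, which was largely fixed beforehand. The genes were called on these same arrays, and leaving out arrays of the other groups does not change the difference.

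The spread between single arrays of the compared groups reached into the spread within them. The root mean square difference over all genes was 0.362 to 0.650 on the log2 scale between IFNAR-/- day 14 and wildtype day 7 arrays. It was 0.233 to 0.492 between IFNAR-/- day 14 arrays and 0.354 to 0.401 between wildtype day 7 arrays. The opposite pairing, IFNAR-/- day 7 against wildtype day 14, shares no array with this one, and 2917 genes were called there (16%). The median absolute difference was 0.166 for IFNAR-/- day 14 against wildtype day 7 and 0.203 for IFNAR-/- day 7 against wildtype day 14. The other pairs each share a group with the compared pair. Wildtype day 7 against IFNAR-/- day 7 had 0.122 with 481 genes called, and against wildtype day 14 0.165 with 1451. IFNAR-/- day 14 against wildtype day 14 had 0.168 with 917, and against IFNAR-/- day 7 0.215 with 2244. A median difference of this size was thus not particular to the compared groups, though their 328 calls were the fewest.

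**Figure D1:**
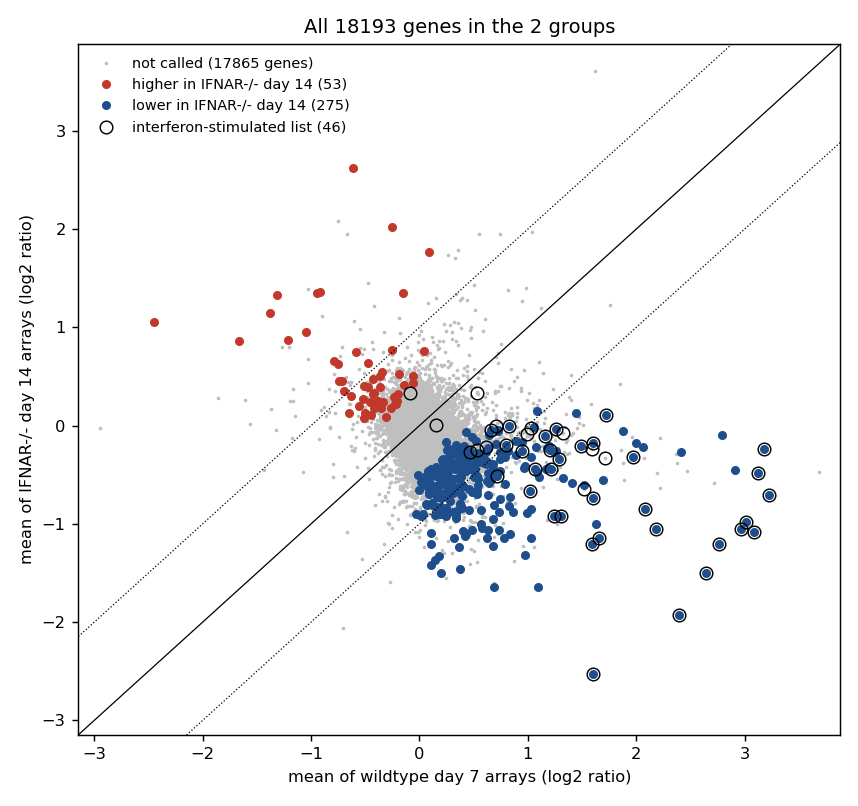
Mean log2 ratio of each of the 18193 genes in IFNAR-/- day 14 arrays (vertical axis) against wildtype day 7 arrays (horizontal axis), n = 3 each. Red points are the 53 genes called higher and blue points the 275 called lower in IFNAR-/- day 14, open circles mark the 46 interferon-stimulated genes, the solid line is equality and the dotted lines are 2-fold. Most circles lie below the lower dotted line, at positive wildtype day 7 levels and negative IFNAR-/- day 14 levels.

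Interferon-stimulated genes were lower in IFNAR-/- day 14 than in wildtype day 7 as a group. Of the 46 measured members of the list, 33 were called lower and 0 higher, where 1.51% of all genes were called lower. The arrays did not overlap for 42 members on the lower side, against 13.2% of all genes, where 24.3% had no overlap in either direction. The median difference of the list was -1.69, and that of all genes 0.02. The median level of the list was -0.535 to -0.245 in the 3 IFNAR-/- day 14 arrays and 0.993 to 1.83 in the 3 wildtype day 7 arrays. The other groups lay at -0.354 to 0.246 in IFNAR-/- day 7 and -0.161 to -0.011 in wildtype day 14 arrays, so the wildtype day 7 arrays were the ones that stood apart. In bulk RNA fewer cells of a type and less RNA per cell cannot be told apart.

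The effector Rsad2, which encodes viperin, had levels of -1.65, -1.73 and -2.40 in IFNAR-/- day 14 mice, against 2.05, 3.29 and 1.82 in wildtype day 7 mice. The groups lay far apart, with a difference of -4.32 ± 0.38 (limma adjusted p = 0.000561). Oas3 had levels of -1.01, -0.68 and -1.55 in IFNAR-/- day 14 mice, against 3.03, 3.72 and 2.51 in wildtype day 7 mice. Its difference of -4.17 ± 0.28 had the lowest adjusted p of the list, 0.000194 by limma. Oas1a, whose promoter holds the overlapping matches, had levels of -0.97, -1.003 and -1.47 in IFNAR-/- day 14 mice, against 1.60, 1.80 and 1.59 in wildtype day 7 mice. The mice of each group agreed closely for Oas1a, and its difference was -2.81 ± 0.21 (limma adjusted p = 0.000263). Ifi27l2a, a small mitochondrial interferon-stimulated protein, had levels of -0.97, -1.31 and -2.22 in IFNAR-/- day 14 mice, against 2.46, 2.80 and 2.68 in wildtype day 7 mice. Its difference was -4.15 ± 0.37, again with no overlap (limma adjusted p = 0.000561).

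The Ifit genes, whose proteins bind foreign RNA and block its translation, were lower in IFNAR-/- day 14 too. Ifit1 had levels of -2.85, -1.69 and -3.05 in IFNAR-/- day 14 mice, against 1.52, 2.32 and 0.97 in wildtype day 7 mice. In IFNAR-/- day 7 mice Ifit1 lay at 0.02, 1.17 and 1.10, so the IFNAR-/- day 14 mice held the lowest Ifit1 levels of the series. Ifit2 had levels of -0.81, -0.28 and -2.05 in IFNAR-/- day 14 mice, against 2.91, 3.69 and 2.29 in wildtype day 7 mice. Ifit3 had levels of -1.29, -0.97 and -1.37 in IFNAR-/- day 14 mice, against 2.66, 3.25 and 2.39 in wildtype day 7 mice. For Ifit3 IFNAR-/- day 7 mouse 3, at 3.18, reached the wildtype day 7 range. The differences were -4.13 ± 0.44 for Ifit1, -4.01 ± 0.52 for Ifit2 and -3.97 ± 0.58 for Ifit3 (limma adjusted p = 0.00165, 0.00435 and 0.00768). The related Ifit1bl1 differed by -3.36 ± 0.53 and Oasl2 by -3.93 ± 0.62, and both lost their call without IFNAR-/- day 14 mouse 3. Over the fits that left out 1 array their differences lay between -3.61 and -3.01 for Ifit1bl1 and between -4.27 and -3.61 for Oasl2. These families hold similar sequences, and cross-hybridisation between their members was not tested.

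Regulators and sensors among the interferon-stimulated genes were lower as well. Irf7, which amplifies interferon production, had levels of -0.89, -0.57 and -1.48 in IFNAR-/- day 14 mice, against 2.80, 3.65 and 2.60 in wildtype day 7 mice. Its difference was -3.99 ± 0.36, with no overlap (limma adjusted p = 0.000561). The RNA sensor gene Ifih1 had levels of -0.42, -0.70 and -0.87 in IFNAR-/- day 14 mice, against 1.01, 1.27 and 0.78 in wildtype day 7 mice. The groups did not overlap for Ifih1, and the difference was -1.68 ± 0.15 (limma adjusted p = 0.000561). Trim30d, a member of a family of ubiquitin ligases, differed by -3.61 ± 0.36, the DNA sensor family gene Ifi209 by -3.42 ± 0.38 and the receptor transporter Rtp4 by -3.24 ± 0.31. Bst2, which encodes tetherin and also stands among plasmacytoid dendritic cell markers, had levels of -0.35, -0.07 and -0.89 in IFNAR-/- day 14 mice, against 0.97, 1.61 and 0.62 in wildtype day 7 mice. The Bst2 difference of -1.502 ± 0.28 (limma adjusted p = 0.0244) lost its call without IFNAR-/- day 14 mouse 3 or wildtype day 7 mouse 1 or 2, at -1.73 to -1.23 over the fits that left out 1 array. It also lost it with the poly-A signal in the fit and with only the arrays of the compared groups.

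**Figure D2:**
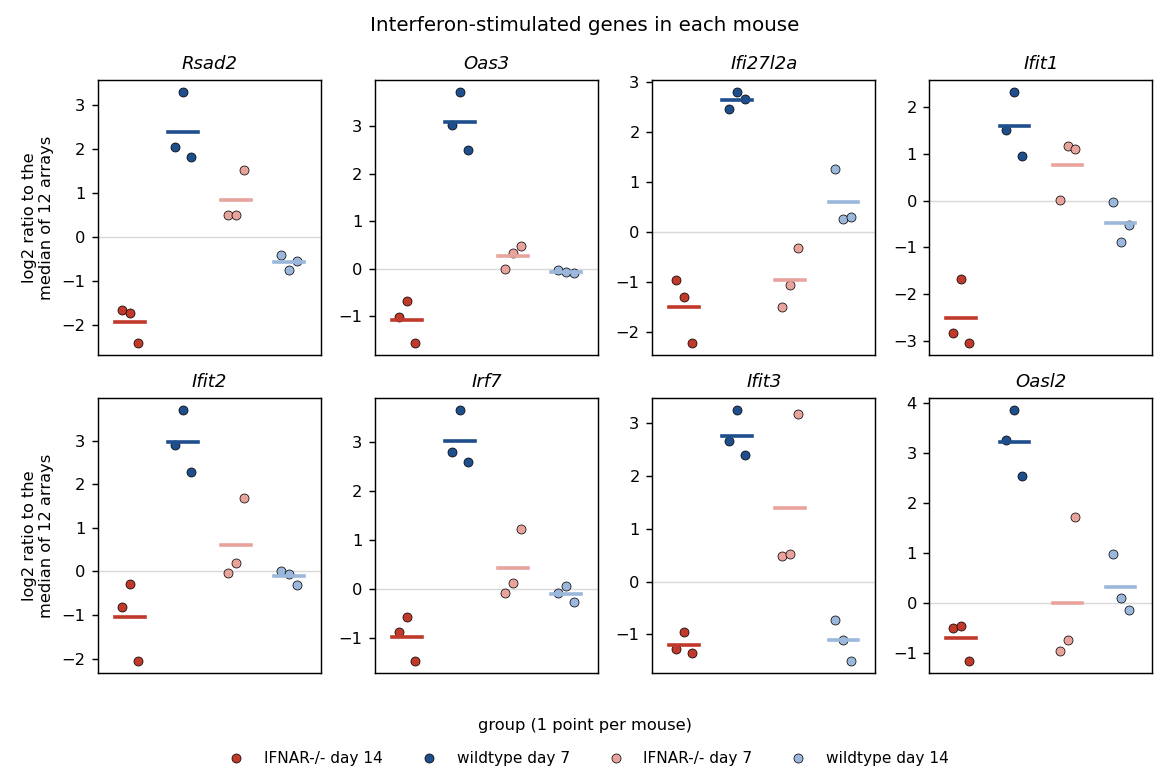
Log2 ratio of 8 interferon-stimulated genes in each mouse, in panels by gene, with groups along the horizontal axis, 1 point per mouse and a bar at the group mean (n = 3). In every panel the 3 wildtype day 7 points lie above the 3 IFNAR-/- day 14 points. For Rsad2, Oas3, Ifit1 and Irf7 the IFNAR-/- day 14 points are also below those of both other groups.

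Not every member of the list followed. Ifi203, a DNA sensor family gene named after its values were seen, was the 1 member whose arrays lay higher in IFNAR-/- day 14, at 0.03, 0.84 and 0.11 in IFNAR-/- day 14 mice, against -0.16, -0.07 and -0.04 in wildtype day 7 mice. It was not called, with a difference of 0.42 ± 0.19 (limma adjusted p = 0.284). Ifi203, Oas1b and Ifi35 were the 3 members within 2-fold, and the last of them was called lower at -0.71 ± 0.11 all the same (limma adjusted p = 0.0121). Ifi35 lost its call without IFNAR-/- day 14 mouse 3, under a trended and robust prior and with only the arrays of the compared groups. The count of members called lower stayed between 22 and 42 in every alternative fit. It was 31 with the poly-A signal in the fit and 23 without IFNAR-/- day 14 mouse 3.

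The list of interferon genes, inducers and receptor had 0 of 18 measured members called, where 1.8% of all genes were, and 13 within 2-fold, where 88.3% were. Its median difference was 0.02, so it showed no call beyond the background and does not show that these genes were equal. Ifnb1, which encodes interferon beta, had levels of -0.20, 0.31 and -0.08 in IFNAR-/- day 14 mice, against -0.38, -0.33 and -0.22 in wildtype day 7 mice. Its difference of 0.32 ± 0.34 had a limma adjusted p of 0.643. Its highest levels were in IFNAR-/- day 7 mice, at 2.44, 3.65 and 2.08. Ifnar2, the second receptor chain, differed by -0.40 ± 0.20 (limma adjusted p = 0.320). Cxcl10, a chemokine that types I and II of interferon both induce, had levels of -0.00, -0.26 and -0.81 in IFNAR-/- day 14 mice, against 0.83, 1.94 and -0.01 in wildtype day 7 mice. These groups overlapped by little, with a difference of -1.28 ± 0.45 that was not called (limma adjusted p = 0.176).

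Chemokines that draw eosinophils and T helper cells were among the genes called higher. Of 26 chemokines measured, 3 were called higher and 0 lower, where 0.291% of all genes were called higher, with a list median of 0.10. Ccl24, an eotaxin, had levels of 0.75, 1.00 and 1.41 in IFNAR-/- day 14 mice, against -1.70, -3.20 and -2.45 in wildtype day 7 mice. The difference of 3.50 ± 0.33 was the largest rise among the called genes (limma adjusted p = 0.000574). Ccl22, a ligand of CCR4, had levels of 0.53, 1.08 and 1.24 in IFNAR-/- day 14 mice, against -1.03, -1.22 and -0.88 in wildtype day 7 mice. Its difference was 2.00 ± 0.28, with each group closely grouped (limma adjusted p = 0.00682). Ccl17, the other CCR4 ligand, had levels of 0.99, 1.37 and 1.68 in IFNAR-/- day 14 mice, against -0.30, -1.92 and -0.61 in wildtype day 7 mice. Its difference of 2.29 ± 0.49 was near the threshold (limma adjusted p = 0.0433). Over the 12 fits that left out 1 array the Ccl17 difference was 1.80 to 2.61, and the call was kept in 4. The call was lost without IFNAR-/- day 14 mouse 2 or 3 or any wildtype day 7 mouse. It was also lost without IFNAR-/- day 7 mouse 1 or 2, or wildtype day 14 mouse 3.

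These chemokines were not called between IFNAR-/- day 14 and wildtype day 14. Ccl24 averaged 1.05 in IFNAR-/- day 14 and 1.31 in wildtype day 14 arrays, a difference of -0.25 (limma adjusted p = 0.717). For Ccl22 the difference from wildtype day 14 was -0.53 (limma adjusted p = 0.311). For Ccl17 that difference was 0.01 (limma adjusted p = 0.997). These comparisons share the IFNAR-/- day 14 arrays with the main one. Of the 53 genes called higher, 33 had all 6 day 14 arrays above all 6 day 7 arrays, a pattern of 2.22% of all genes. Being called already places IFNAR-/- day 14 above wildtype day 7, so these shares are not independent of the call.

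Further genes with this order of days were found among matrix, oxygen and haem genes. Timp1, an inhibitor of matrix metalloproteinases, had levels of 0.51, 0.73 and 1.34 in IFNAR-/- day 14 mice, against -0.80, -2.11 and -2.08 in wildtype day 7 mice. Its difference was 2.52 ± 0.40 (limma adjusted p = 0.0112), and the call was lost without IFNAR-/- day 14 mouse 3, with 2.28 to 2.95 over the fits that left out 1 array. Egln3, a prolyl hydroxylase that marks hypoxia-inducible factors for decay, had levels of 1.34, 1.47 and 1.27 in IFNAR-/- day 14 mice, against -1.21, -0.45 and -1.09 in wildtype day 7 mice. The groups did not overlap for Egln3, and the difference was 2.27 ± 0.28 (limma adjusted p = 0.00319). Hmox1, which encodes haem oxygenase, had levels of 0.20, 0.46 and 0.40 in IFNAR-/- day 14 mice, against -0.71, -0.36 and -1.02 in wildtype day 7 mice. Its difference was 1.05 ± 0.17 (limma adjusted p = 0.0151). Car2, a carbonic anhydrase, had levels of 0.76, 0.34 and 1.5049 in IFNAR-/- day 14 mice, against -0.49, -1.35 and -1.79 in wildtype day 7 mice. Its difference was 2.08 ± 0.37 (limma adjusted p = 0.0210). Over all 12 fits that left out 1 array the differences were 0.88 to 1.21 for Hmox1 and 1.76 to 2.44 for Car2. Hmox1 lost its call without IFNAR-/- day 14 mouse 2 or 3 or wildtype day 7 mouse 1 or 3. Car2 lost its call without IFNAR-/- day 14 mouse 3 or wildtype day 7 mouse 2 or 3. Both lost it when the poly-A signal was added to the fit, as did Ccl17 and, among genes described below, Mall. Alpk2, an alpha kinase, rose by 2.65 ± 0.31, and the transcript 4930459C07Rik by 2.53 ± 0.28.

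A smaller set of genes was highest in IFNAR-/- day 14 mice alone. All 3 IFNAR-/- day 14 arrays lay above the other 9 for 12 of the 53 genes called higher, a pattern of 1.59% of all genes. Il12a, which encodes the p35 subunit of interleukin 12, was the largest of them. It had levels of 2.64, 2.53 and 2.69 in IFNAR-/- day 14 mice, against -0.77, 0.63 and -1.69 in wildtype day 7 mice. The IFNAR-/- day 14 mice agreed closely and the wildtype mice spread widely, with a difference of 3.23 ± 0.45 (limma adjusted p = 0.00682). Against wildtype day 14 the Il12a difference was 2.44 (limma adjusted p = 0.0153) and against IFNAR-/- day 7 it was 3.47 (limma adjusted p = 0.00136). These comparisons called 5.04% and 12.3% of all genes. With only the arrays of the compared groups in the fit the Il12a difference from wildtype day 7 was not called (limma adjusted p = 0.0843). Cbln1, known as a synaptic organiser, differed by 2.27 ± 0.48, Mall, a membrane proteolipid, by 1.68 ± 0.30 and Plekhg4, a guanine nucleotide exchange factor, by 1.501 ± 0.22. Against wildtype day 14 these genes differed by 2.98, 2.12 and 1.29 (limma adjusted p = 0.00988, 0.00600 and 0.0106). Over the 12 fits that left out 1 array the differences from wildtype day 7 were 2.02 to 2.45 for Cbln1 and 1.37 to 1.99 for Mall. Cbln1 kept its main call in 4 of those fits. It lost it without any of the 6 compared arrays, IFNAR-/- day 7 mouse 1 or wildtype day 14 mouse 2. Mall lost its main call without IFNAR-/- day 14 mouse 3 or wildtype day 7 mouse 2 or 3. Plekhg4 lost it with only the arrays of the compared groups and under a trended and robust prior (limma adjusted p = 0.108 and 0.0536).

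**Figure D3:**
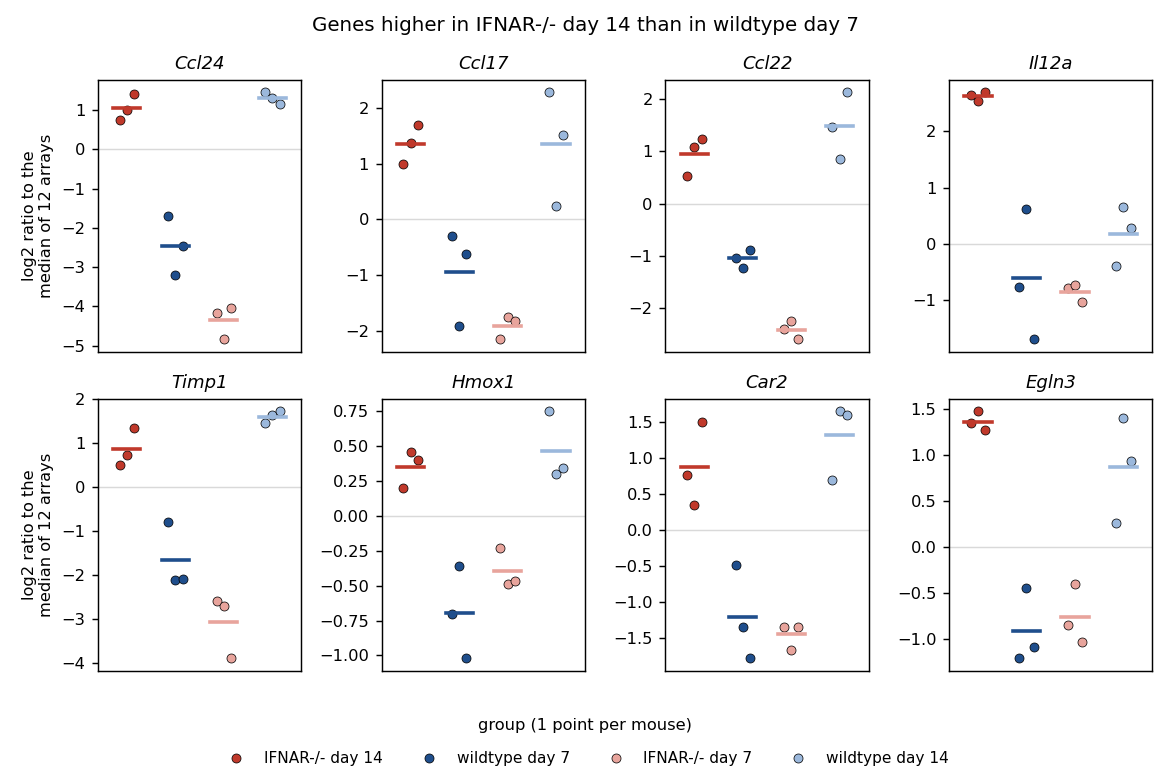
Log2 ratio of 8 genes called higher in IFNAR-/- day 14 in each mouse, in panels by gene, with groups along the horizontal axis, 1 point per mouse and a bar at the group mean (n = 3). In 7 panels both day 14 groups lie above both day 7 groups, while Il12a is at 2.53 or more in the 3 IFNAR-/- day 14 mice and at 0.66 or less in all others.

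Of the 275 genes called lower, the interferon-stimulated ones included, 107 had the 3 wildtype day 7 arrays above the other 9, a pattern of 1.39% of all genes. In 97 the 3 IFNAR-/- day 14 arrays lay below the other 9, against 2.63% of all genes, and in 112 all 6 day 7 arrays lay above all 6 day 14 arrays, against 3.39%. A gene can show more than 1 of these patterns. Il15, a cytokine that sustains natural killer and memory T cells, had levels of 0.09, -0.65 and -0.73 in IFNAR-/- day 14 mice, against 1.11, 1.46 and 0.99 in wildtype day 7 mice. Its difference was -1.62 ± 0.29 (limma adjusted p = 0.0218). Il15 lost its call without IFNAR-/- day 14 mouse 2 or 3 or any wildtype day 7 mouse. Over all 12 fits that left out 1 array its difference lay between -1.88 and -1.47. Wildtype day 14 minus wildtype day 7 was -1.76 for Il15 (limma adjusted p = 0.00590). IFNAR-/- day 14 minus wildtype day 14 was 0.14 (limma adjusted p = 0.843). These comparisons share arrays with the main one. Of 23 inflammatory cytokines measured, 1 was called higher and 1 lower, Il12a and Il15, where 0.291% and 1.51% of all genes were.

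Among receptors and dendritic cell markers a few members were lower. Cd209a, a mouse relative of DC-SIGN that binds fungal mannans, had levels of -0.29, -0.26 and -0.09 in IFNAR-/- day 14 mice, against 2.04, 1.95 and 2.20 in wildtype day 7 mice. The groups were tight and apart, but IFNAR-/- day 7 mice were near 0 too and wildtype day 14 mice lay at 2.39, 2.02 and -0.15. The Cd209a difference was -2.28 ± 0.49 (limma adjusted p = 0.0445), and -2.34 to -2.21 over the 12 fits that left out 1 array. It kept its call in 3 of those fits. Those that kept it left out IFNAR-/- day 7 mouse 3, wildtype day 14 mouse 1 or wildtype day 14 mouse 3. Tlr7, an endosomal sensor of RNA, had levels of -0.18, -0.99 and -0.78 in IFNAR-/- day 14 mice, against 0.39, 0.44 and 0.75 in wildtype day 7 mice. Its difference of -1.18 ± 0.18 (limma adjusted p = 0.0102) lost its call without IFNAR-/- day 14 mouse 3, at -1.41 to -1.01 over the fits that left out 1 array. Tlr3, a sensor of double-stranded RNA that stands among conventional dendritic cell markers, differed by -1.22 ± 0.21 (limma adjusted p = 0.0201). It lost its call without IFNAR-/- day 14 mouse 2 or 3 or wildtype day 7 mouse 1 or 2. Over all 12 fits that left out 1 array the Tlr3 difference lay between -1.49 and -1.02. Wildtype day 14 minus wildtype day 7 was -1.11 for Tlr7 and -1.66 for Tlr3 (limma adjusted p = 0.00590 and 0.00177). IFNAR-/- day 14 minus wildtype day 14 was -0.07 for Tlr7 and 0.43 for Tlr3 (limma adjusted p = 0.878 and 0.276). These comparisons share arrays with the main one. Of 18 fungal recognition receptors 2 were called lower and 0 higher, and of 15 conventional dendritic cell markers 2 were called lower and 0 higher, with Cd209a counted in both lists. Of all genes 1.51% were called lower and 0.291% higher. With the poly-A signal in the fit Cd209a and Tlr3 lost their calls, and with only the arrays of the compared groups Tlr3 and Tlr7 did. Tlr2, Cd36 and Clec7a, the beta-glucan receptor Dectin-1, were not called, at -0.73 ± 0.25, -0.64 ± 0.22 and -0.11 (limma adjusted p = 0.156, 0.161 and 0.539). Clec7a was named after its values were seen.

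Lipid genes of macrophages lay lower in IFNAR-/- day 14, mostly without a call. All 18 measured members of the list of lipid handling and PPAR targets had differences below 0, where 47.1% of all genes did. The arrays did not overlap for 9 of them on the lower side, against 13.2% of all genes, and the median difference was -0.75. The 1 called member was Cpt1a, which carries fatty acids into mitochondria, with levels of -0.38, -1.29 and -0.84 in IFNAR-/- day 14 mice, against 0.09, 0.27 and 0.37 in wildtype day 7 mice. Its difference of -1.08 ± 0.19 (limma adjusted p = 0.0223) lost its call without IFNAR-/- day 14 mouse 3 or any wildtype day 7 mouse. It also lost it with the poly-A signal in the fit. Over all 12 fits that left out 1 array the Cpt1a difference lay between -1.30 and -0.85. Lpl, which releases fatty acids from triglycerides, was not called at -1.07 ± 0.27 (limma adjusted p = 0.0773), nor was Angptl4, its inhibitor, at -0.78 ± 0.19 (limma adjusted p = 0.0651). The median level of the list was -0.845 to -0.245 in IFNAR-/- day 14 arrays and -0.032 to 0.462 in wildtype day 7 arrays. The other groups lay at 0.685 to 0.792 in IFNAR-/- day 7 and -0.323 to 0.034 in wildtype day 14 arrays. Alveolar macrophage identity genes, 9 of which stand in other lists too, had a median difference of -0.56 with 0 called lower and Car2 called higher among 18. Siglecf, the surface lectin of alveolar macrophages, had levels of 0.05, -1.73 and -1.22 in IFNAR-/- day 14 mice, against 0.67, -0.06 and 0.82 in wildtype day 7 mice. Those groups overlapped, and the difference of -1.44 ± 0.47 was not called (limma adjusted p = 0.145). Wildtype day 14 minus wildtype day 7 was -2.21 for Siglecf (limma adjusted p = 0.0168). IFNAR-/- day 14 minus wildtype day 14 was 0.76 (limma adjusted p = 0.389). Lysosomal genes had 11 of 19 members with no overlap on the lower side, yet 0 called and 18 within 2-fold, where 1.8% and 88.3% of all genes were.

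To find genes shared by the compared groups, a crossed contrast was taken, the mean of IFNAR-/- day 14 and wildtype day 7 minus the mean of wildtype day 14 and IFNAR-/- day 7. It is orthogonal to the difference between the compared groups, with which it shares only the estimate of the spread, so genes chosen by it may or may not differ there. It called 451 genes (2.48%), 208 with a high (1.14%) and 243 with a low (1.34%) mean in IFNAR-/- day 14 and wildtype day 7. Of the 451 genes, 326 were within 2-fold between IFNAR-/- day 14 and wildtype day 7 (72.3%), against 88.3% of all genes and 76.5% of the genes with a standard deviation above the median. Of them 47 were called in the difference (10.4%), against 1.8% of all genes, with 7 higher and 40 lower. All 6 arrays of the compared groups lay above all 6 others for 54 of the 208 high genes (26.0%), and below for 70 of the 243 low genes (28.8%). Over all genes these patterns were found in 0.566% and 0.764%. The contrast that chose the genes already sets the direction, so these shares only describe them.

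The crossed calls moved with the arrays included and with the covariates in the fit. The number was 393 without IFNAR-/- day 7 mouse 3 and 138 without IFNAR-/- day 7 mouse 2, 167 without wildtype day 7 mouse 2, 168 without IFNAR-/- day 7 mouse 1 and 180 without wildtype day 7 mouse 1. It was 262 without IFNAR-/- day 14 mouse 3, 230 without wildtype day 14 mouse 2 and 222 without wildtype day 14 mouse 3. The mean 5' over 3' signal was lower in the other groups, at -0.111 ± 0.355 in IFNAR-/- day 7 and -0.445 ± 0.406 in wildtype day 14 arrays (SD, n = 3 each). In IFNAR-/- day 7 this rested on mouse 2, at -0.520, with 0.078 in mouse 1 and 0.110 in mouse 3. Wildtype day 14 arrays lay at -0.912 to -0.184, and those of the compared groups at 0.064 to 0.178. With it as a covariate 3 crossed genes remained called, and with the poly-A signal 175. Wildtype day 14 arrays lay apart from the compared groups in the 5' over 3' signal. The effect of this signal cannot be told apart from that of the groups in the crossed contrast.

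Interleukin 1 genes were among the crossed genes with the largest values within 2-fold. Il1b had levels of 0.30, -0.56 and 0.42 in IFNAR-/- day 14 mice, against 0.32, 0.28 and 0.21 in wildtype day 7 mice. The groups overlapped, and the interval of the difference was -0.69 to 0.26. Wildtype day 14 mice stood apart for Il1b at -2.08, -2.51 and -2.29, while IFNAR-/- day 7 mice lay at 0.02, -0.11 and -0.01. Il1a had levels of 0.48, -0.41 and 0.36 in IFNAR-/- day 14 mice, against 0.27, -0.09 and -0.44 in wildtype day 7 mice, and an interval of -0.50 to 0.97. Ccr7, the receptor that guides dendritic cells to lymph nodes, had levels of 0.13, 0.00 and 0.48 in IFNAR-/- day 14 mice, against 0.70, 0.77 and 0.64 in wildtype day 7 mice. Here the groups did not overlap, but the difference of -0.50 ± 0.20 was not called (limma adjusted p = 0.228) and its interval was -0.93 to -0.06. Both other groups lay below for Ccr7, at -0.63, -0.61 and -0.51 in IFNAR-/- day 7 and -0.82, -0.85 and -0.04 in wildtype day 14 mice. Spink2, a protease inhibitor, had an interval of -0.29 to 0.80, the signalling adaptors Stap1 and Traf1 -0.97 to 0.08 and -0.90 to 0.35, complement factor B (Cfb) -0.81 to 0.43, and AA467197 -0.40 to 0.94. For Stap1 the compared groups did not overlap either, with IFNAR-/- day 14 lower. AA467197 stood apart in IFNAR-/- day 7 mice alone, at -2.59, -2.35 and -3.79.

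**Figure D4:**
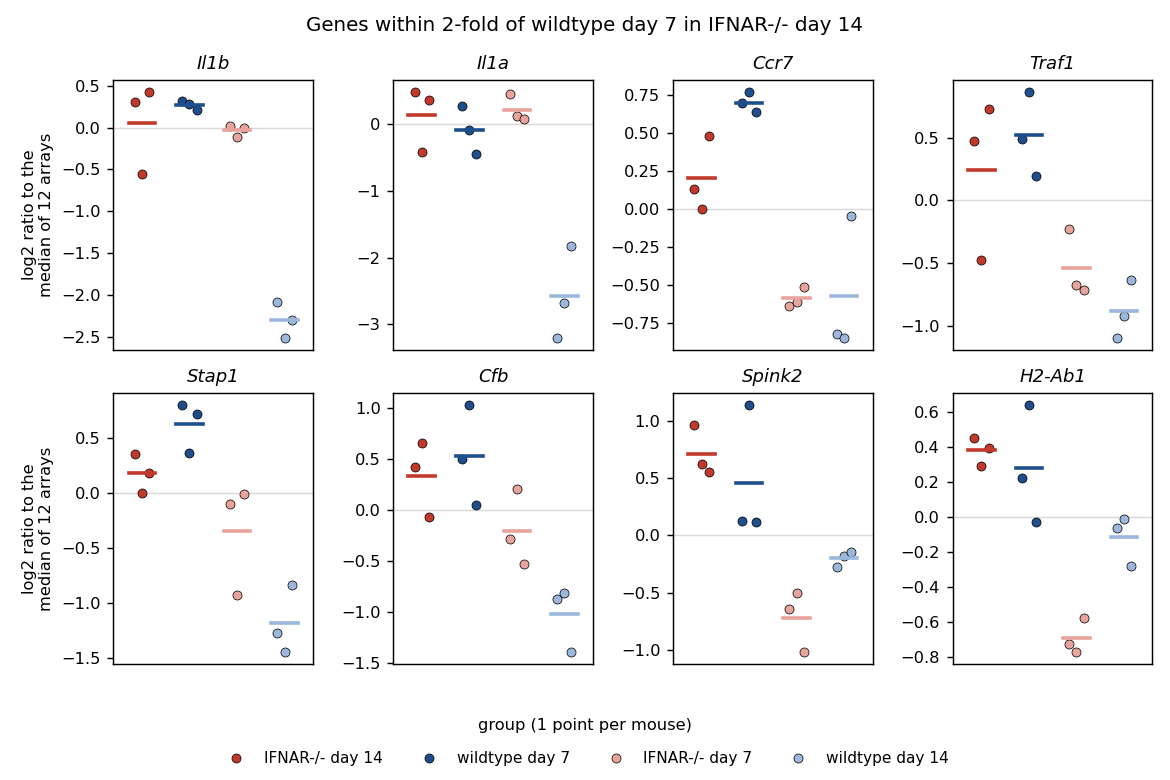
Log2 ratio of 8 genes within 2-fold between IFNAR-/- day 14 and wildtype day 7 in each mouse, in panels by gene, with groups along the horizontal axis, 1 point per mouse and a bar at the group mean (n = 3). The genes were chosen within 2-fold, so the choice itself sets the close means of these 2 groups. For Stap1 and Ccr7 the IFNAR-/- day 14 points all lie below the wildtype day 7 points. For Il1b and Il1a only wildtype day 14 is far below both groups.

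For some low crossed genes within 2-fold only 1 of the other groups stood apart. Adamtsl4, a matrix protein, had levels of -0.05, -0.55 and -0.20 in IFNAR-/- day 14 mice, against 0.02, -0.01 and -0.23 in wildtype day 7 mice, while IFNAR-/- day 7 mice lay at 2.78, 3.02 and 2.54. Its interval between the compared groups was -0.54 to 0.16. The homeobox gene Msx3 lay at 2.42, 2.78 and 2.91 in wildtype day 14 mice, with an interval of 0.01 to 0.99 between IFNAR-/- day 14 and wildtype day 7. Npl, a lyase of sialic acid, was higher in both other groups, at 0.63, 0.98 and 0.13 in IFNAR-/- day 7 and 1.65, 1.22 and 0.86 in wildtype day 14 mice. Npl had levels of -0.15, -0.88 and -0.25 in IFNAR-/- day 14 mice, against -0.44, -0.99 and -0.28 in wildtype day 7 mice, with an interval of -0.47 to 0.77.

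Of the interferon-stimulated list, 13 members were crossed genes, but 11 of these were called lower in IFNAR-/- day 14 than in wildtype day 7 and 1 was within 2-fold. Ifi213, a DNA sensor family gene, had levels of -0.04, -0.13 and -0.12 in IFNAR-/- day 14 mice, against 2.14, 3.52 and 2.70 in wildtype day 7 mice. Only wildtype day 7 was high for Ifi213, and the difference was -2.89 ± 0.27 (limma adjusted p = 0.000574). Trim30a differed by -1.70 ± 0.15, Phf11d by -2.29 ± 0.27 and Sass6, a centriole gene, by -1.51 ± 0.17. Fam241b ran the other way, at 0.66, 0.38 and 0.83 in IFNAR-/- day 14 mice, against -0.69, -0.55 and -1.01 in wildtype day 7 mice. Its difference was 1.38 ± 0.15 (limma adjusted p = 0.00168).

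Of 12 measured genes of antigen presentation by MHC class II, 0 were called, where 1.8% of all genes were, and 8 were within 2-fold, where 88.3% were. Their median difference was 0.17. H2-Ab1, a chain of the class II molecule I-A, had levels of 0.45, 0.29 and 0.39 in IFNAR-/- day 14 mice, against 0.22, 0.64 and -0.03 in wildtype day 7 mice. The groups overlapped, and the difference of 0.10 ± 0.15 had an interval of -0.23 to 0.44. IFNAR-/- day 7 mice lay below both groups, at -0.72, -0.77 and -0.58. Wildtype day 14 mice, at -0.06, -0.01 and -0.28, overlapped wildtype day 7 mice. Wildtype day 14 minus wildtype day 7 was -0.39 for H2-Ab1 and was not called (limma adjusted p = 0.152). Of the 12 members, 8 were high crossed genes, against 1.14% of all genes. Ciita, the master regulator of class II genes, did not overlap between the groups, at 1.08, 0.57 and 0.92 in IFNAR-/- day 14 mice, against 0.08, 0.44 and -0.14 in wildtype day 7 mice. Its difference of 0.73 ± 0.22 was not called (limma adjusted p = 0.115). MHC class I processing had 0 of 13 members called and all 13 within 2-fold, and H2-D1 differed by -0.55 ± 0.17 (limma adjusted p = 0.120).

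Interferon gamma, which induces class II genes, and lymphocyte markers were spread widely in both groups. Ifng had levels of 2.67, 2.28 and 0.95 in IFNAR-/- day 14 mice, against 1.15, 2.04 and -0.07 in wildtype day 7 mice, and it was at or below 0.02 in all 6 other mice. Its difference of 0.93 ± 0.54 was not called (limma adjusted p = 0.395), and the interval of -0.25 to 2.10 leaves its size unsettled. Cd8b1, which encodes CD8 beta on cytotoxic T cells, had levels of 2.30, 2.13 and 0.78 in IFNAR-/- day 14 mice, against 1.08, 0.29 and -0.57 in wildtype day 7 mice. Its difference was 1.47 ± 0.44 (limma adjusted p = 0.116). The T cell markers Cd2 and Ctla4 went the other way with no overlap, at -1.82 ± 0.42 and -1.38 ± 0.40. Neither was called (limma adjusted p = 0.0548 and 0.108). Of the 18 T cell markers 13 had differences above 0 and 5 below, where 47.1% of all genes were below. Nkg7, a granule protein of cytotoxic cells, had levels of 2.02, 2.87 and 0.95 in IFNAR-/- day 14 mice, against 1.62, 0.12 and -0.08 in wildtype day 7 mice. The Nkg7 difference was 1.39 ± 0.53 (limma adjusted p = 0.204), while Klrk1 of the same list had -0.89 ± 0.45 (limma adjusted p = 0.328). Of the 15 cytotoxic and natural killer cell markers 10 had differences above 0 and 5 below. The median level of 18 T cell markers was 0.156 to 0.794 in IFNAR-/- day 14 arrays and -0.031 to 0.423 in wildtype day 7 arrays, with 0 called and 8 among the high crossed genes. That of 15 cytotoxic and natural killer cell markers was 0.019 to 0.884 in IFNAR-/- day 14 and 0.122 to 0.545 in wildtype day 7 arrays, with 0 called and 7 among the high crossed genes. Of all genes 1.8% were called and 1.14% were high crossed genes. These lymphocyte lists moved with the class II genes in the crossed contrast, and their part in it was not tested. Of 18 interferon-gamma GTPases and genes of the CXCR3 axis, 0 were called and 4 were within 2-fold, where 88.3% of all genes were. Their median difference was -0.48.

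Inflammatory genes had few calls. Of 20 NF-kB and feedback genes 0 were called, where 1.8% of all genes were, and 15 were within 2-fold, where 88.3% were, with list levels of -0.079 to 0.254 in IFNAR-/- day 14 and -0.075 to 0.193 in wildtype day 7 arrays. Wildtype day 14 arrays lay apart at -0.708 to -0.686. Of 22 immediate-early factors 18 had differences below 0, against 47.1% of all genes, with a median of -0.28. The arrays did not overlap for 7 of them on the lower side, against 13.2% of all genes. The 1 called lower, where 1.51% of all genes were, was Nr4a2, an orphan nuclear receptor. Nr4a2 had levels of 0.08, -0.73 and 0.02 in IFNAR-/- day 14 mice, against 1.47, 1.29 and 0.85 in wildtype day 7 mice. Its difference was -1.41 ± 0.31 (limma adjusted p = 0.0464), and -1.59 to -1.15 over the 12 fits that left out 1 array. The call was kept in 2 of those fits, without IFNAR-/- day 14 mouse 1 and without IFNAR-/- day 7 mouse 3. It was lost with the poly-A signal in the fit. Nos2, the inducible nitric oxide synthase, had levels of 1.39, 2.11 and 0.23 in IFNAR-/- day 14 mice, against 0.15, 1.67 and -1.59 in wildtype day 7 mice. The groups overlapped and the difference of 1.17 ± 0.73 was not called (limma adjusted p = 0.430). Arg1, the arginase of alternatively activated macrophages, did not overlap, at 0.32, 0.11 and 0.63 in IFNAR-/- day 14 mice, against -0.58, -0.15 and -0.59 in wildtype day 7 mice, but was not called at 0.79 ± 0.34 (limma adjusted p = 0.255). Of 14 genes of alternative activation 2 were called higher, Ccl24 and Ccl17, where 0.291% of all genes were. The arrays of 6 of the 14 had no overlap on the higher side, against 11.1% of all genes. The list's median difference was 0.53.

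For the lists that follow, the shares of all genes were 0.291% called higher, 1.51% called lower and 1.8% called either way. Costimulation and dendritic cell maturation had 2 of 16 members called higher, Ccl17 and Ccl22, with a median of 0.08. Of 13 matrix metalloproteinases and inhibitors Timp1 was the 1 called, and of 12 haem and iron genes Hmox1 was. None of the 33 cell cycle, 14 glycolysis, 16 unfolded protein response, 11 heat shock, 15 cholesterol, 13 monocyte and interstitial macrophage, 10 B cell, 12 neutrophil, 12 eosinophil, basophil and mast cell or 4 erythroid genes was called. Beside a share of 1.8%, 0 called in lists of this size does not show that their genes were equal. Of these lists, glycolysis had the highest median difference at 0.43 and heat shock the lowest at -0.46. Markers of other lung cells had 0 members called either, and single mice carried high levels of them. The median level of 14 lung epithelial markers was -0.079 to 0.167 in IFNAR-/- day 14 arrays and -0.242 to 2.42 in wildtype day 7 arrays, and that of 12 endothelial markers was -0.343 to -0.008 and -0.084 to 2.00 in the same order of groups. The high value of each came from wildtype day 7 mouse 1, as did that of 12 fibroblast markers, at 0.681, and outside the compared groups IFNAR-/- day 7 mouse 3 was high in these lists too. The medians of the differences were -0.71, -0.87 and -0.29 for these lists. The interferon-stimulated list was 29 of 46 called lower without that mouse.

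**Figure D5:**
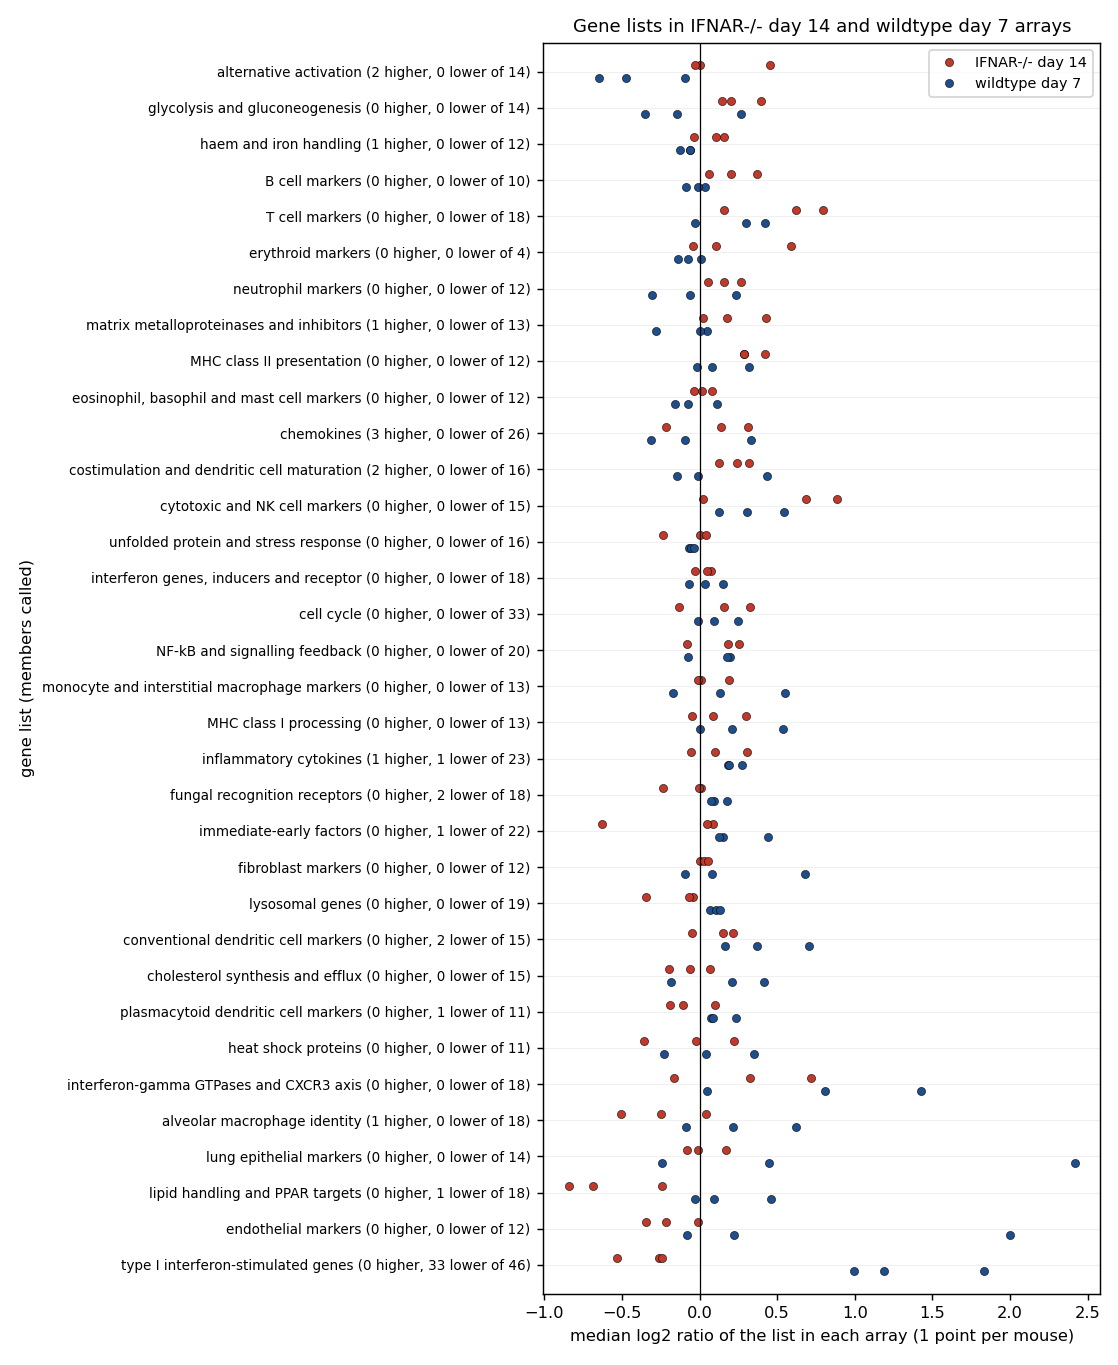
Median log2 ratio of each of the 34 gene lists in the 3 IFNAR-/- day 14 arrays (red, upper row of each list) and the 3 wildtype day 7 arrays (blue, lower row), 1 point per mouse, with lists ordered by median difference and the number of members called in brackets. The interferon-stimulated list at the bottom has 33 of 46 members called lower and no overlap between groups, and the blue points at 2.42 and 2.00 are wildtype day 7 mouse 1 in the epithelial and endothelial lists.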

How the data were processed

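RNA of CD11c+ lung cells from 12 mice was measured on Affymetrix arrays, 1 mouse per array and 3 arrays in each of 4 groups, and the 2 groups compared hold 6 arrays. The values are the authors' deposited linear ratios, each probe set divided by about its own median over the 12 arrays. RMA is named without a version per the submitters' processing notes, and the division was read from the values, since 99.996% of probe sets had a median within 0.02 of 1. Signal above background and the genome build of the authors' processing are not given in the sources used here.

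From the deposited ratios log2 values were computed, with no pseudocount. Of 45101 probe sets, 34945 had 1 gene symbol, 932 several and 9160 none, and 64 were controls. They were averaged to 18193 genes, 9010 of them from several probe sets, which can disagree. The platform's gene annotation was matched by Entrez ID to RefSeq for GRCm38.p6 for 34741 probe sets. A limma 3.58.1 fit in R 4.3.3 of the 4 group means on all 12 arrays (8 residual and 3.21 prior degrees of freedom) gave all differences, with Benjamini-Hochberg adjustment over all genes and a threshold of 0.05. Tables and figures were made with python 3.11.15, pandas 2.3.3 and matplotlib 3.10.9, and the fit was tested on simulated data. The precision is limited by 3 arrays per group, and an exact permutation test of 3 against 3 cannot go below a p of 0.1.

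The groups compared, the 34 gene lists (614 genes, 563 measured) and the tests were chosen with earlier results of these data known. Named genes were the 12 largest rises and 12 largest falls among called genes with no overlap, the 8 highest and 8 lowest crossed genes within 2-fold, up to 8 crossed genes called in the difference, up to 4 members of lowest p per list, and a few fixed genes. Genes named otherwise are marked in the text or are the members that a count refers to. Alternatives changed the normalization, the use of probe sets, the variance prior, array weights, covariates, thresholds, blocks and the arrays included.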

Additional observations from a re-analysis of the deposited data

Results flagged for a closer look

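The genotype difference at day 14 differed from that at day 7 for 451 genes by the crossed contrast of the limma fit at an adjusted p under 0.05. The mean of IFNAR-/- day 14 and wildtype day 7 was higher than that of the other groups for 208 of them and lower for 243. Crossed values below are these differences of means on the log2 scale, equal to the change in genotype difference divided by 2.

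Among genes with no more than 2-fold between IFNAR-/- day 14 and wildtype day 7, the crossed value was 1.33 for Il1b, 1.26 for AA467197, 1.21 for Il1a, 1.17 for Stap1 and 1.09 for Traf1. It was 1.05 for both Spink2 and Cfb, and 1.03 for Ccr7. The low values were -1.61 for Adamtsl4, -1.41 for Npl, -1.10 for Fam53b and -1.01 for Msx3. Olfm4 and Zfp809 had -0.96 each, and Zfp704 and Ttc30a1 had -0.93 each.

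Among crossed genes also called between IFNAR-/- day 14 and wildtype day 7, the crossed value was 1.38 for Ifi213, 1.36 for Ifi209, 0.92 for Phf11d, 0.89 for Oas3 and 0.85 for Oas1a. It was 0.59 for Trim30a, 0.58 for Sass6 and -0.53 for Fam241b. By list, 13 interferon-stimulated genes, 8 MHC class II genes, 8 T cell markers and 7 cytotoxic and NK cell markers were crossed, where 2.48% of all genes were. Single outlying mice within a group were not tested.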

How the results depend on the processing

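The counts below are of 328 genes called between IFNAR-/- day 14 and wildtype day 7 (53 higher, 275 lower), 451 crossed genes, 47 of them called in the difference and 326 within 2-fold, and 16058 of all genes within 2-fold. Where a count moved, the cause was not tested. Quantile normalization applied again gave 1113 called, 351 higher and 762 lower, and 122 crossed genes called. Every probe set by itself gave 503 called, 431 lower, 753 crossed and 74 crossed and called. Array weights gave 1482 called, 510 higher, 972 lower, 1765 crossed, 337 crossed and called and 1517 crossed within 2-fold. With only the arrays of the groups compared 63 were called, 9 higher and 54 lower. Without IFNAR-/- day 14 mouse 2 and IFNAR-/- day 7 mouse 3 together 199 were called and 161 were lower. The 5' over 3' covariate left 3 crossed genes, 1 called and 2 within 2-fold. The poly-A covariate gave 146 called, 17 higher, 129 lower, 175 crossed, 17 crossed and called and 100 crossed within 2-fold. Requiring 2-fold gave 158 called, 20 higher, 138 lower, 79 crossed and 8 crossed and called. A trended and robust prior gave 20 crossed and called, a limit of 1.5-fold 183 crossed within it, and genes above the median SD, which are fewer, 6879 within 2-fold. Leaving out 1 array at a time gave 99 to 608 called, 14 to 84 higher, 82 to 524 lower, 138 to 485 crossed, 12 to 85 crossed and called, 97 to 373 crossed within 2-fold and 15118 to 16386 of all genes within 2-fold. Interferon-stimulated genes called lower, 33 of 46, were 23 to 36 in those fits.

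Deviations from the group means were correlated between IFNAR-/- day 14 and wildtype day 7 mice. The correlations were -0.061, 0.152 and 0.056 for mouse 1, 2 and 3 of the same number, and -0.1585 to 0.1368 for pairs of unlike number. With 3 arrays per group these values cannot show whether mice of the same number were handled together. With the mouse number as a replicate block 245 genes were called, 30 crossed genes were called in the difference and 216 were within 2-fold. Differences that were not called changed sign in some fits. Traf1 was 0.068 after quantile normalization, 0.0861 with array weights and 0.0827 without both arrays that stand apart. Il1b was 0.0678 with array weights and 0.0941 without both arrays. Olfm4 was 0.0059 after quantile normalization, and Ifnar1 was 0.0112 with array weights. Leaving out 1 array at a time gave -0.5179 to 0.0827 for Traf1, -0.3974 to 0.0941 for Il1b, -0.2164 to 0.0304 for Olfm4, -0.4275 to 0.0626 for Cfb, -0.0623 to 0.3719 for Npl, -0.0497 to 0.2821 for H2-Ab1 and -0.1344 to 0.1302 for Itgax. Crossed genes need all 4 groups, and values per gene or list were not given per probe set, so those combinations have no value.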
